A study of Mus musculus and Homo sapiens with 12 samples.

Results

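The comparison described here is between mouse T-cell acute lymphoblastic leukaemia (T-ALL) cells from mice fed no valine and from mice fed a control diet. Its members are all genes whose mean reached 1 FPKM (fragments per length of the gene and sequencing depth) over the 8 mouse libraries. The rule kept 9943 of the 10430 genes of the mouse table. Of the 12 samples in the series, 8 are mouse libraries, and 4 of these enter the comparison directly, 2 per diet. The tumours were NOTCH-delta E leukaemias, driven by an activated form of NOTCH1, in mice that had received a secondary transplant. All mouse libraries share the strain C57BL/6, 3 weeks on the diet, and sorting of leukaemic cells from the spleen by the marker GFP. The control diet held 8 g/kg of valine and the valine-free diet 0 g/kg. The partial diets, named 0.8 and 0.4 g/kg in the sample labels, enter the fit only through its estimate of the spread and are given beside some values. In the treatment protocol these partial amounts are amounts in drinking water, so they are used here only as names. Each diet has a library named TALL2 and a library named TALL3. What these names mark is not given in the sources used here, nor are the age of the mice and the number of animals behind a library, so p-values refer to the variation between libraries only, and this may be technical.

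Valine is an essential branched-chain amino acid, and mammals must take it from the diet. When an amino acid runs short, uncharged tRNA activates the kinase GCN2 (gene Eif2ak4), which phosphorylates the initiation factor eIF2 and slows protein synthesis, while the mRNA of the transcription factor ATF4 is translated more. ATF4 then switches on genes that make, import and charge amino acids to tRNA, a programme called the integrated stress response. In T-ALL, NOTCH1 drives growth partly through MYC, and rapidly dividing leukaemic cells have a high demand for amino acids.

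The libraries were read from 14222895 to 37687253 times over the listed genes, as recovered from the steps between FPKM values. The controls had 21253323 reads (TALL2) and 16085830 (TALL3), and the 0 g/kg libraries 18619420 and 14222895. T-lineage markers, which define the labelled cell, summed to 5880 and 6620 FPKM in the controls and 6435 and 6096 FPKM without valine, over 29 listed genes. Markers of other cell types moved with the diet. The 22 listed neutrophil markers summed to 1.97 (TALL2) and 13.9 (TALL3) FPKM in the controls and to 697 and 405 FPKM without valine, against 14.9 to 91.5 FPKM on the partial diets. The 22 erythroid markers summed to 261 and 445 FPKM in the controls and to 130 and 126 FPKM without valine, against 153 to 199 FPKM on the partial diets. In sorted bulk cells, fewer cells of a type and less RNA per cell cannot be told apart. The part of these other cells in the results below was not tested.

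In limma, fitted on log2(FPKM + 1) of all 8 libraries with Benjamini-Hochberg adjustment over the 9943 genes, 0 genes (0%) passed an adjusted p of 0.05 for 0 against 8 g/kg, and the smallest adjusted p was 0.121. At an unadjusted p under 0.05 there were 476 higher genes (4.79%) and 549 lower genes (5.52%). Limma-voom on the recovered reads also called 0 genes, with 924 at an unadjusted p under 0.05. No gene value below therefore passed the test. Values are given by library, with the log2 fold change of 0 against 8 g/kg on the log2(FPKM + 1) scale, its standard error (SE) and its adjusted p for the genes described most fully. On this scale the change of weakly expressed genes is understated. A gene is called without overlap where both 0 g/kg libraries lay on 1 side of both controls. Of all tested genes 1901 (19.1%) were without overlap and higher and 2279 (22.9%) without overlap and lower, and the median log2 fold change was -0.01.

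The pair of libraries named TALL2 and the pair named TALL3 share no library, so the difference between 0 and 8 g/kg can be set side by side in the 2 pairs. Across the 9943 genes the differences correlated at a Pearson r of 0.475 and a Spearman rho of 0.346. This is a description across genes, which are not replicates. In both pairs 2905 genes were higher and 3359 lower, and 3679 differed in direction. A difference of 1 or more on the log2 scale was seen for 174 genes in TALL2 and 375 in TALL3, and 85 genes were in both sets. A difference of -1 or lower was seen for 87 genes in TALL2 and 121 in TALL3, of which 22 were shared. Outside the cell type marker lists, r was 0.376 over 9876 genes, with 61 genes shared among the higher and 14 among the lower.

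**Figure D1:**
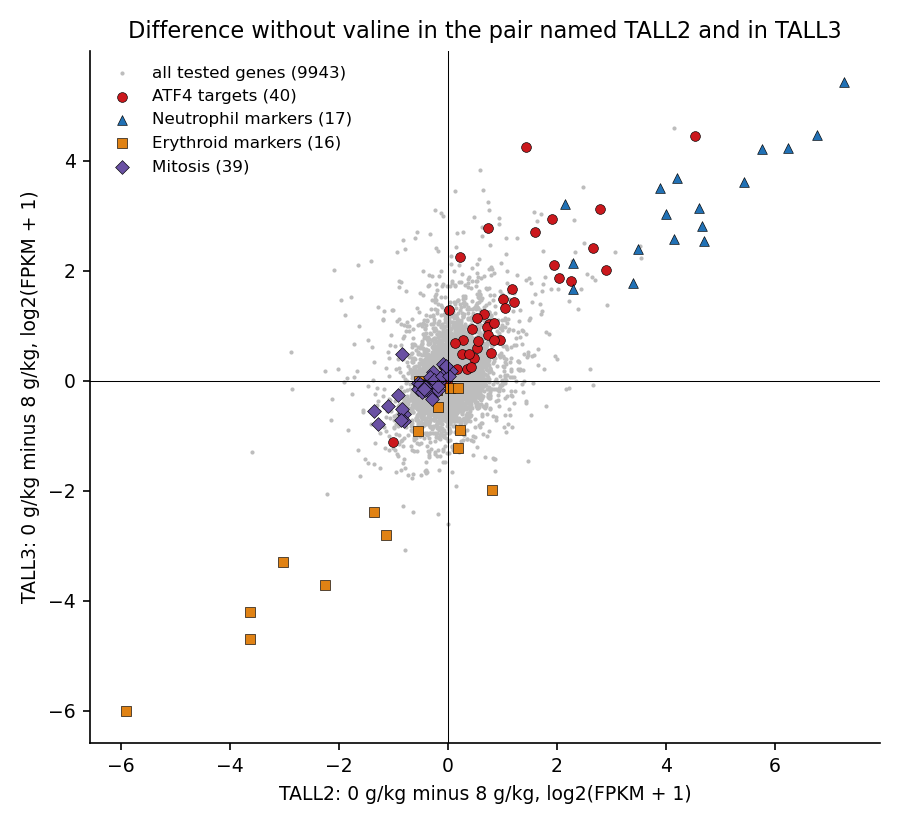
Difference between 0 and 8 g/kg in log2(FPKM + 1) for the libraries named TALL2 (horizontal axis) and TALL3 (vertical axis), 1 point per tested gene, with the ATF4 targets, neutrophil, erythroid and mitosis lists coloured. The 17 tested neutrophil markers lie above 0 on both axes, 37 of the 40 ATF4 targets do so as well, and the mitosis genes lie near and below 0 (29 of 39 lower in both pairs).

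Most targets of ATF4 were higher without valine. Of the 40 tested genes in a list of known ATF4 targets, 35 were higher without valine in both libraries and 1 was lower. These are 87.5% and 2.50% of the list, against 19.1% and 22.9% of all tested genes. The median log2 fold change of the list was 0.84, against -0.01 over all genes. It was 0.74 in the TALL2 pair and 1.03 in the TALL3 pair. Of the 40, 2 reached the mean of 1 FPKM only through the 0 g/kg libraries, so their direction is set in part by the filter. In the list 28 genes were higher at an unadjusted p under 0.05 and 1 was lower. Against the control mean, the median of the list lay at 0.02 in the TALL2 library at 0.8 g/kg, at 0.51 to 0.63 in the other 3 libraries of the partial diets, and at 0.70 (TALL2) and 1.06 (TALL3) without valine. Of the 48 genes in the list, Cbs, Cebpb, Chac1, Cth, Fgf21, Nupr1, Slc7a11 and Vldlr were not among the listed genes of the table.

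ATF4 binds DNA with a C/EBP partner at a composite element, and the letters TGATGNAA (TTNCATCA on the other strand) were searched on both strands in windows from 250 bases before to 50 bases after the annotated start, taken from RefSeq on GRCm38.p6. They were found in 11 of the 33 ATF4 targets that have a window (33.3%), in 204 of 7803 tested genes with one (2.61%), and in 1219 of 27025 genes of the whole promoter table (4.51%). A match is a description of the letters, not a site. The windows of 3 targets with a match are shown because their values are described below; they belong to 2 enzymes and a regulator of the list, and were chosen after their values were seen. Capitals mark the match, and each window is written 5′ to 3′ on the strand of the gene. The matches begin 23 bases before the start of Asns (chr6:7693160-7693459, minus strand), 103 bases before the start of Pck2 (chr14:55540016-55540315, plus strand) and 15 bases after the start of Trib3 (chr2:152344011-152344310, minus strand).
Asns: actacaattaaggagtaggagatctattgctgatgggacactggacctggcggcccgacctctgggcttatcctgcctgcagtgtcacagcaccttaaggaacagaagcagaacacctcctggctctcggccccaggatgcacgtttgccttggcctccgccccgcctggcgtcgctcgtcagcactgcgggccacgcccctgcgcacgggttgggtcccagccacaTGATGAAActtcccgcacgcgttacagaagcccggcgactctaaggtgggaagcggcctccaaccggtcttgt
Pck2: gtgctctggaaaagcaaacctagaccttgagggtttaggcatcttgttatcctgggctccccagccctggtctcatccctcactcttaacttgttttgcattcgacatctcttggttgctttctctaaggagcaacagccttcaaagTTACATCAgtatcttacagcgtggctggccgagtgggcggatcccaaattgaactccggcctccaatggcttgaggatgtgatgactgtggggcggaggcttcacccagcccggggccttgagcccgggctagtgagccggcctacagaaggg
Trib3: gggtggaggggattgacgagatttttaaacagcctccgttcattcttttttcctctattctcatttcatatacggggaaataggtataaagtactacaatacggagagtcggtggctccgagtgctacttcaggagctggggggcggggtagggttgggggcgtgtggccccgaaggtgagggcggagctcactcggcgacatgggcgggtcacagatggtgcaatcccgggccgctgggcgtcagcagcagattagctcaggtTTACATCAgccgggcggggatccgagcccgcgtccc

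All 11 enzymes of amino acid synthesis and one-carbon metabolism in the ATF4 list were higher in both 0 g/kg libraries, with a median log2 fold change of 1.25. Asns, which makes asparagine from aspartate and whose window is shown above, was at 2.02 (TALL2) and 2.90 (TALL3) FPKM in the controls and at 69.2 and 84.6 FPKM without valine. It had a log2 fold change of 4.50 (SE 0.929, adjusted p = 0.318 in limma), with 4.54 in the TALL2 pair and 4.46 in the TALL3 pair, and on the partial diets its libraries lay apart, from 5.58 to 47.5 FPKM. Pck2, the mitochondrial enzyme that turns oxaloacetate into phosphoenolpyruvate, was at 3.51 and 4.21 FPKM in the controls and at 27.6 and 26.6 FPKM without valine. Its log2 fold change of 2.54 (SE 0.306) had the smallest adjusted p of the list, 0.121 in limma, and its replicate libraries lay closer together than those of Asns.

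Gpt2, which makes alanine in mitochondria, was at 1.45 and 1.53 FPKM in the controls and at 9.12 and 8.23 FPKM without valine. Pycr1, which completes proline synthesis, was at 1.43 and 0.580 FPKM against 4.51 and 4.03 FPKM, while Aldh18a1, earlier in the same route, was at 31.9 and 40 against 62.9 and 67.1 FPKM. In neither of these genes did the groups overlap. Of the serine pathway, Psat1 was at 99.2 and 88.0 FPKM in the controls and at 180 and 183 FPKM without valine, whereas Phgdh and Psph, the steps before and after it, differed less, with log2 fold changes of 0.28 and 0.36. The mitochondrial one-carbon enzymes Mthfd2 (43.0 and 37.0 against 87.9 and 105 FPKM) and Shmt2 (172 and 178 against 307 and 296 FPKM) were higher in both libraries. Shmt2 takes the one-carbon unit of serine onto folate. Bcat1, the cytosolic enzyme that transfers amino groups from branched-chain amino acids, was at 3.24 and 2.17 FPKM in the controls and at 8.82 and 7.60 FPKM without valine.

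The 11 tested genes of amino acid synthesis outside the ATF4 list showed no such pattern. In 1 of them the 0 g/kg libraries were without overlap above the controls and in 3 below (9.09% and 27.3%), and their median log2 fold change was -0.14.

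All 8 amino acid carriers in the ATF4 list were higher in both libraries, with a median of 0.66. Slc7a3, a carrier of cationic amino acids, was at 0.0169 and 0.0444 FPKM in the controls, which is 1 and 2 recovered reads, and at 6.02 and 8.07 FPKM without valine. It had a log2 fold change of 2.95 (SE 0.543, adjusted p = 0.231 in limma). Slc6a9, which carries glycine, was at 1.69 and 1.60 FPKM in the controls and at 11.8 and 8.09 FPKM without valine. The abundant carriers differed by less on the log scale: Slc3a2, the shared heavy chain of several carriers, was at 66.0 and 61.4 against 89.9 and 119 FPKM, and its partner Slc7a5, which carries valine and other large neutral amino acids, at 93.4 and 89.7 against 137 and 149 FPKM. Slc1a5, which carries glutamine, had the smallest standard error of the 8 (log2 fold change 0.44, SE 0.0779), with 87.1 and 88.2 FPKM in the controls and 114 and 124 FPKM without valine. Among 13 tested amino acid transporters outside the ATF4 list, 4 were without overlap higher and 3 lower (30.8% and 23.1%). Their median was 0.05.

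Of the 13 factors and regulators of stress signalling in the list, 10 were higher in both libraries and 1 was lower, and their median was 0.72 in the TALL2 pair and 2.01 in the TALL3 pair. Trib3, a pseudokinase that binds ATF4 and dampens it, was at 0.499 and 0.179 FPKM in the controls and at 3.04 (TALL2) and 21.4 FPKM (TALL3) without valine. Atf3, a repressor of the same family as ATF4, was at 0.393 and 0.122 FPKM against 1.33 and 6.73 FPKM, so the TALL3 library again was the higher. Stc2, a secreted glycoprotein, was at 0.0577 and 0.0152 FPKM (5 and 1 recovered reads) against 2.98 and 6.82 FPKM. Ppp1r15a, which brings the phosphatase to eIF2, was higher in both pairs, at 14.5 and 7.31 FPKM in the controls and at 45.8 and 52.9 FPKM without valine (1.60 in the TALL2 pair and 2.70 in the TALL3 pair, SE 0.341 on a log2 fold change of 2.15, adjusted p = 0.195 in limma). Eif4ebp1, an inhibitor of cap-dependent translation, was at 1.36 and 5.74 FPKM in the controls and 16.5 and 26.2 FPKM without valine, and Atf5 at 13.9 and 23.3 against 56.5 and 103 FPKM. Cebpg, a C/EBP partner of ATF4, was at 8.90 and 8.99 against 14.7 and 22.1 FPKM.

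Ndrg1, a gene also induced by hypoxia, was the 1 ATF4 target below both controls, at 40.6 and 63.0 FPKM in the controls and 19.8 and 28.7 FPKM without valine (log2 fold change -1.06, SE 0.384). Ddit4, an inhibitor of mTORC1, overlapped, with 83.4 and 91.4 FPKM against 78.4 and 111 FPKM. Of 15 tested hypoxia genes, 3 were without overlap higher and 6 lower (20% and 40%, against 19.1% and 22.9% of all tested genes), with a median of -0.18. Car9, a carbonic anhydrase at the cell surface, was at 0.863 and 2.09 FPKM in the controls and 3.50 and 10.7 FPKM without valine, so the hypoxia genes did not share a direction.

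**Figure D2:**
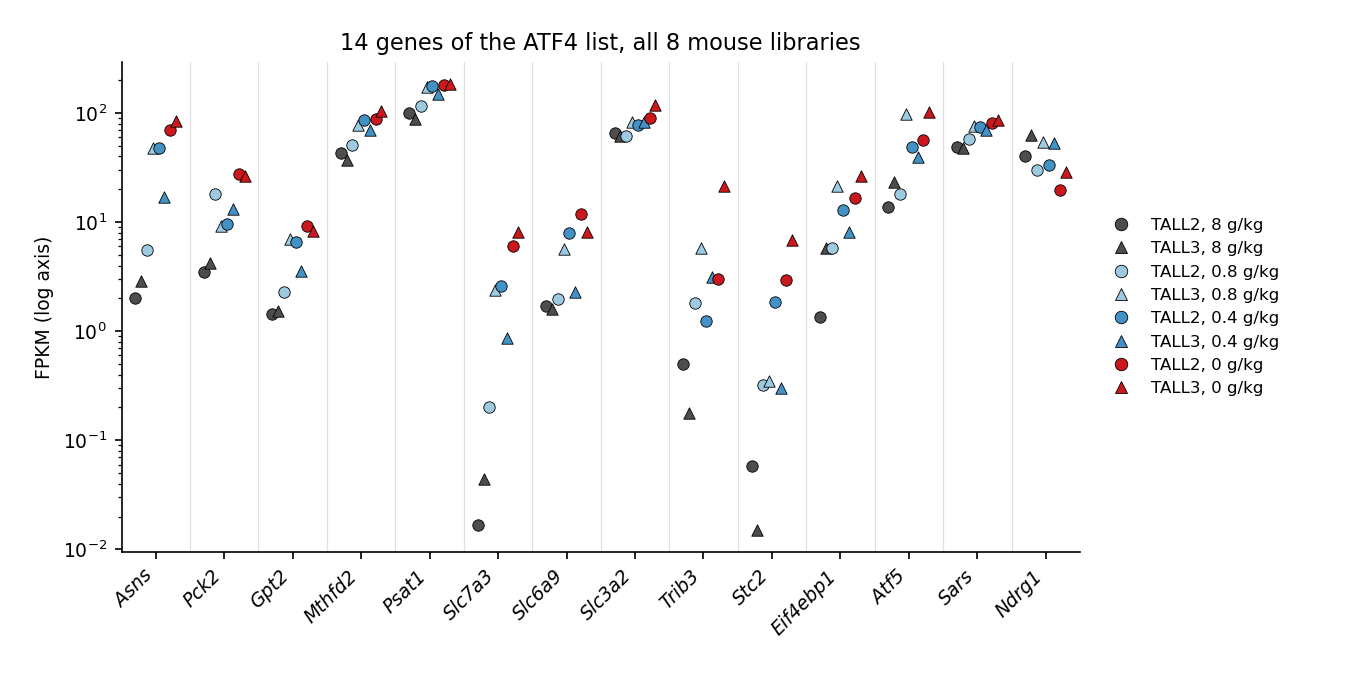
FPKM (log axis) of 14 genes of the ATF4 list in all 8 mouse libraries, with colour for the diet and shape for the library name. For each gene but Ndrg1 both 0 g/kg libraries (red) lie above both controls (grey), and Trib3 spans 3.04 to 21.4 FPKM between its 0 g/kg libraries while Pck2 spans 26.6 to 27.6 FPKM.

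The genes that charge tRNA with amino acids were divided. Of 24 cytosolic aminoacyl-tRNA synthetase genes, 12 were without overlap higher and 5 lower (50% and 20.8%), with a median of 0.15. The synthetases of serine (Sars, 48.4 and 47.6 against 81.6 and 85.4 FPKM), alanine (Aars, 29.8 and 30.7 against 50.9 and 63.4 FPKM), tyrosine (Yars, 25.3 and 31.1 against 49.1 and 57.6 FPKM) and cysteine (Cars, 11.7 and 16.4 against 30.4 and 36.1 FPKM) had the smallest p-values. Vars, which charges valine itself, was at 149 and 146 FPKM in the controls and at 161 and 158 FPKM without valine, a log2 fold change of 0.11 (SE 0.0822, adjusted p = 0.661 in limma). Its mitochondrial counterpart Vars2 overlapped, with 16.8 and 19.5 against 18.6 and 19.6 FPKM. The median over 16 mitochondrial synthetases was 0.02, with 2 without overlap in each direction (12.5% each). Iars2, which charges isoleucine in mitochondria, was among the lower (49.8 and 43.7 against 37.1 and 32.2 FPKM). The 17 cytosolic synthetases that are not in the ATF4 list had a median of 0.02. Of these, 7 were without overlap higher and 5 lower (41.2% and 29.4%).

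The mRNAs of the sensors that lie before ATF4 differed little. Eif2ak4, which encodes GCN2, overlapped, with 6.45 and 7.82 FPKM in the controls and 7.56 and 6.21 FPKM without valine. Atf4 itself overlapped as well, with 80.3 and 76.2 FPKM against 73.5 (TALL2) and 125 FPKM (TALL3). Over 21 regulators of the integrated stress response the median was -0.02. Without overlap, 3 were higher and 6 lower (14.3% and 28.6%, against 19.1% and 22.9% of all tested genes). The lower ones included Eif2b2, a subunit of the exchange factor of eIF2 (57.7 and 54.1 against 46.0 and 39.5 FPKM), and Eif2ak1, the haem-regulated eIF2 kinase (25.2 and 25.3 against 21.2 and 21.5 FPKM).

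Of 33 genes of amino acid sensing before mTORC1, 8 were without overlap higher and 11 lower. These are 24.2% and 33.3%, against 19.1% and 22.9% of all tested genes, and the list's median was -0.05. The highest member by log2 fold change was Sesn2, a leucine sensor and ATF4 target, at 2.70 and 2.40 FPKM in the controls and at 3.32 (TALL2) and 15.1 FPKM (TALL3) without valine. The lowest was Deptor, which inhibits mTOR, at 111 and 82.0 against 43.9 and 58.2 FPKM. Kptn, of the KICSTOR complex that restrains mTORC1, was at 11.6 and 11.8 against 18.2 and 15.3 FPKM, and Mios, of the GATOR2 complex that relieves that restraint, at 21.8 and 20.1 against 16.3 and 14.4 FPKM.

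Among 28 genes of branched-chain amino acid breakdown, 5 were without overlap higher and 5 lower (17.9% each), near the shares over all genes, with a median of -0.08. The median was 0.08 in the TALL2 pair and -0.21 in the TALL3 pair. Bcat2, the mitochondrial counterpart of Bcat1, was at 25.4 and 24.0 FPKM in the controls and 30.8 and 26.1 FPKM without valine. Bckdha, a subunit of the dehydrogenase that commits branched-chain acids to breakdown, was at 39.2 FPKM in both controls and at 39.1 (TALL2) and 22.2 FPKM (TALL3) without valine.

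Outside the lists, the largest difference was that of Cox6a2, an isoform of a cytochrome c oxidase subunit known from heart and skeletal muscle, on chromosome 7 from 128205435 to 128206387 on the minus strand. Cox6a2 was at 0.0675 and 0.0888 FPKM in the controls, 1 recovered read each, and at 18 and 25.4 FPKM without valine (a log2 fold change of 4.38, SE 0.764, adjusted p = 0.221 in limma). On the partial diets it lay at 0.711 and 8.29 FPKM (0.8 g/kg) and 5.28 and 2.36 FPKM (0.4 g/kg). Rmi2, of a complex that dissolves recombination intermediates, was at 8.54 and 9.48 against 16.9 and 16.8 FPKM (SE 0.102 on a log2 fold change of 0.83, adjusted p = 0.121 in limma). Apip, an enzyme of methionine salvage, was at 10.5 and 10.4 against 15.7 and 16.3 FPKM. The other genes with large positive differences by the naming rule, Slpi (0.0524 and 0.138 against 4.84 and 12.1 FPKM), Hp (0.0341 and 0.224 against 10.9 and 5.66 FPKM), Anxa1 (0.411 and 1.33 against 15.4 and 9.91 FPKM) and Ifitm6 (0.169 and 0.0742 against 8.85 and 4.42 FPKM), are genes known to be made by myeloid cells, and the summed neutrophil markers were higher in the same libraries. For genes this low in the controls, the direction may be set in part by the filter.

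Among lower genes outside the cell type marker lists, Usp3, a deubiquitinase of histones, had the smallest p, with 57.5 and 58.0 FPKM in the controls and 36.6 and 38.5 FPKM without valine (a log2 fold change of -0.61, SE 0.0717, adjusted p = 0.121 in limma). It lay between 39.3 and 43.7 FPKM on the partial diets. Serinc5, a membrane protein, was at 14.1 and 16.7 against 7.37 and 7.32 FPKM, and Rbm3, a cold-inducible RNA-binding protein, at 34.8 and 33.3 against 22.5 and 23.6 FPKM. Gm16124, annotated as antisense, was at 9.88 and 8.89 against 3.91 and 3.22 FPKM, and Gm20033, annotated as a retained intron, at 9.10 and 6.89 against 2.68 and 1.79 FPKM. Whether the counting used strand is not given in the sources used here, so reads of these loci and of genes that overlap them may not be separable.

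Outside the cell type marker lists, the largest negative differences by the naming rule rested less evenly on the libraries. Dap was at 56.5 and 132 FPKM in the controls and at 3.76 (TALL2) and 52.7 FPKM (TALL3) without valine, with an SE of 1.65 on a log2 fold change of -2.45. A930003A15Rik (7.39 and 19.5 against 1.73 and 5.19 FPKM), Scn4b (5.39 and 21.1 against 3.12 and 3.23 FPKM) and Aqp1 (1.75 and 9.67 against 0.591 and 0.263 FPKM) were also far apart between their controls. Nkd1, an inhibitor of WNT signalling and itself a WNT target, was at 13.1 and 12.2 FPKM in the controls and at 6.98 and 1.73 FPKM without valine. Tubb2a, a beta-tubulin, was at 12.8 and 9.34 against 4.37 and 2.62 FPKM.

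Genes of DNA replication were mostly higher and genes of mitosis mostly lower, the latter with overlap between the groups in 26 of 39 genes. Of 46 replication genes, 27 were without overlap higher and 0 lower (58.7% and 0%, against 19.1% and 22.9% of all genes), with a median log2 fold change of 0.24. The TALL2 pair had a median of 0.34, with 41 of 46 genes higher, and the TALL3 pair a median of 0.09, with 34 higher. Without the TALL2 control the list's median was 0.14. Cdc6, which loads the MCM helicase at origins, was at 13.2 and 15.3 FPKM in the controls and 26.5 and 21.3 FPKM without valine (a log2 fold change of 0.70, SE 0.185, adjusted p = 0.371 in limma). Cdc45, part of the active helicase, was at 30.1 and 40.1 against 47.9 and 61.9 FPKM. Of the polymerases and the clamp loader, Pold3 was at 22.9 and 22.7 against 31.5 and 31.2 FPKM, Pola2 at 47.6 and 50.4 against 67.4 and 61.9 FPKM, and Rfc2 at 20.4 and 21.7 against 29.6 and 27.2 FPKM. The least of the list was Dbf4, the activator of the origin kinase, which overlapped, with 40.6 and 43.1 against 32.7 and 46.2 FPKM.

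Genes that lead into S phase pointed the same way in part. Of 22 genes of G1 cyclins and cyclin inhibitors, 7 were without overlap higher and 2 lower (31.8% and 9.09%). Their median was 0.22. Ccne2, a cyclin of the entry into S phase, was at 9.88 and 11.5 FPKM in the controls and 17.0 and 21.1 FPKM without valine, and E2f1, a transcription factor for replication genes, at 30.8 and 31.0 against 48.0 and 39.8 FPKM. Of 26 genes of nucleotide synthesis, 8 were without overlap higher and 0 lower (30.8% and 0%), although their median was only 0.03. It was 0.13 in the TALL2 pair, -0.07 in the TALL3 pair and -0.02 without the TALL2 control, so no direction is read from this list. Dck, which salvages deoxynucleosides, was at 52.2 and 56.3 against 67.2 and 70.1 FPKM, and Rrm2, of ribonucleotide reductase, at 117 and 144 against 169 and 181 FPKM.

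Of 39 mitosis genes, 0 were without overlap higher and 13 lower (33.3%, against 22.9% of all genes), with a median of -0.28. In the TALL2 pair 37 of the 39 were lower, with a median of -0.41, and in the TALL3 pair 29 were lower, with a median of -0.14. Ccnb2, a cyclin of the entry into mitosis, was at 82.3 and 95.8 FPKM in the controls and 33.2 and 55.0 FPKM without valine (a log2 fold change of -1.04, SE 0.292, adjusted p = 0.389 in limma). Its relative Ccnb1 was at 13.7 and 16.2 against 7.38 and 10.3 FPKM. Of the centromere, Cenpa, the histone that marks it, was at 53 and 54.9 against 20.1 and 37.2 FPKM, and Cenpf at 58.9 and 56.9 against 27.0 and 41.3 FPKM. Cdc20, which activates the ligase that ends mitosis, was at 59.5 and 90.1 against 33.6 and 53.8 FPKM. On the partial diets the median of the mitosis list lay above the control mean, at 0.03 to 0.52. The 0 g/kg libraries lay at -0.47 (TALL2) and -0.03 (TALL3), which are also the list's medians with the other 0 g/kg library left out. The controls lay at -0.10 (TALL2) and 0.10 (TALL3), so the valine-free TALL3 library was above the TALL2 control. The difference between the partial and the valine-free diets was not tested here.

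**Figure D3:**
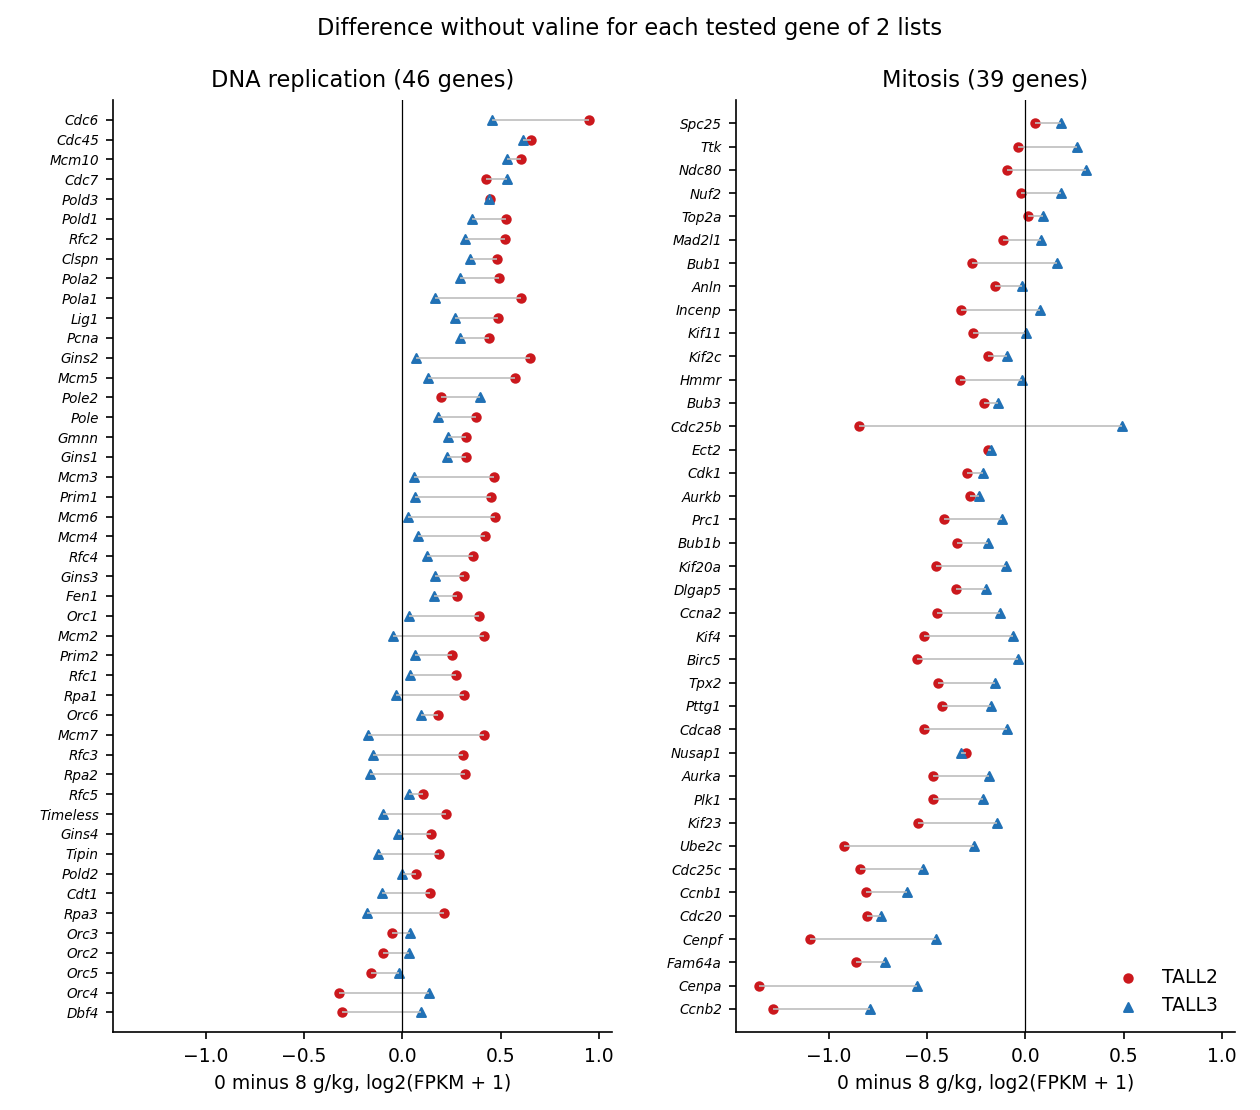
Difference between 0 and 8 g/kg in log2(FPKM + 1) for each tested gene of the DNA replication list (left, 46 genes) and the mitosis list (right, 39 genes), with circles for the TALL2 pair, triangles for the TALL3 pair and a line joining them. Replication genes lie mostly right of 0 and mitosis genes left of 0, with the TALL2 pair farther from 0 in both lists (medians 0.34 and -0.41) than the TALL3 pair (0.09 and -0.14).

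Nuclear genes of the respiratory chain, which the title of the series singles out, were slightly lower. Of 36 complex I subunit genes, 1 was without overlap higher and 20 lower (2.78% and 55.6%, against 19.1% and 22.9% of all tested genes). The list's median was -0.18, which was -0.08 in the TALL2 pair and -0.23 in the TALL3 pair. In the TALL2 pair 26 were lower and in the TALL3 pair 34. Ndufb3, an accessory subunit, was at 30.8 and 29.4 FPKM in the controls and 23.8 and 19.4 FPKM without valine, and Ndufs3, of the core, at 34.2 and 31.6 against 27.5 and 23.6 FPKM. Ndufs1, the large iron-sulphur subunit, overlapped (50.4 and 50.8 against 51.5 and 49.3 FPKM). On the partial diets the complex I median lay at -0.03 in both TALL3 libraries and at -0.14 and -0.11 in the TALL2 libraries. The differences of most subunits are small beside the fit's spread: 6 subunits were lower at an unadjusted p under 0.05 and 0 higher.

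Complexes II to IV, ATP synthase and the TCA cycle lay on the same side. Of 24 genes of complexes II to IV, 0 were without overlap higher and 14 lower (0% and 58.3%, against 19.1% and 22.9% of all tested genes), with a median of -0.15. For 14 ATP synthase genes these counts were 0 and 6 (0% and 42.9%), with a median of -0.09. For 23 TCA cycle genes they were 2 and 9 (8.70% and 39.1%), with a median of -0.13. In each of these lists the TALL3 pair carried more of the difference, with medians of -0.24, -0.23 and -0.21 against -0.06, 0.02 and -0.05 in TALL2. With the valine-free TALL3 library left out, the ATP synthase median was -0.02 and that of the TCA cycle -0.06. Uqcrfs1, the Rieske iron-sulphur protein of complex III, was at 125 FPKM in both controls and at 93.9 and 88.3 FPKM without valine. Atp5g3, of the proton-carrying ring of ATP synthase, was at 308 and 301 against 257 and 220 FPKM. Ogdh, which oxidises 2-oxoglutarate, was a TCA cycle gene above both controls (113 and 119 against 141 and 141 FPKM).

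Mitochondrial and nucleolar genes of protein synthesis were on the lower side as well. Of 74 mitochondrial ribosomal protein genes, 5 were without overlap higher and 31 lower (6.76% and 41.9%, against 19.1% and 22.9% of all tested genes). The list's median was -0.09, which was -0.04 in the TALL2 pair and -0.14 in the TALL3 pair. Mrpl27, of the large subunit, was at 17.1 and 16.5 against 11.1 and 9.88 FPKM (SE 0.0931 on a log2 fold change of -0.63, adjusted p = 0.158 in limma), whereas Mrps6, of the small subunit, was higher, at 14.7 and 15.1 against 21.5 and 20.6 FPKM. Of 27 genes of mitochondrial import and proteases, 3 were without overlap higher and 10 lower (11.1% and 37.0%), with a median of -0.08. It was -0.005 in the TALL2 pair, with 13 of the 27 genes higher, and -0.10 in the TALL3 pair. With the valine-free TALL3 library or the TALL3 control left out the median was -0.02, so this direction rested mostly on the TALL3 libraries. Tomm20, an import receptor, was at 16.3 and 14.2 against 11.0 and 9.80 FPKM. Of 52 ribosome biogenesis genes, 4 were without overlap higher and 23 lower (7.69% and 44.2%), with a median of -0.08. That median was -0.14 in the TALL2 pair and -0.06 in the TALL3 pair. The lower ones included Nob1, which trims ribosomal RNA of the small subunit (51.8 and 50.1 against 42.6 and 41.1 FPKM). Pes1, of the large subunit, was another (50.2 and 52.5 against 43.0 and 37.2 FPKM).

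The 71 cytosolic ribosomal protein genes lay near the shares over all genes, with 16 without overlap in each direction (22.5% each) and a median of -0.01. Rpl5, which stabilises p53 when ribosome assembly fails, stood apart with 34 and 29.6 FPKM in the controls and 16.5 and 12.0 FPKM without valine (log2 fold change -1.12, SE 0.193). Ribosomal protein genes have many near-identical copies in the genome, among which reads can be split, so this value is uncertain. Of 19 p53 targets, 3 were without overlap higher and 3 lower (15.8% each), with a median of 0.03.

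Genes of protein folding were higher in part. Of 30 genes of the unfolded protein response, 13 were without overlap higher and 2 lower (43.3% and 6.67%, against 19.1% and 22.9% of all tested genes). The list's median was 0.19, and this was 0.04 in the TALL2 pair and 0.43 in the TALL3 pair. Leaving out the valine-free TALL3 library gave a median of 0.03, and leaving out that of TALL2 gave 0.37. Atf6, a sensor of misfolded proteins in the endoplasmic reticulum, was at 15 and 12.4 against 26.3 and 25.3 FPKM, and Dnajb9, a co-chaperone there, at 5.41 and 3.75 against 8.75 and 8.60 FPKM. The chaperone Hspa5 was at 142 and 130 against 168 (TALL2) and 254 FPKM (TALL3). Pdia4, which forms disulphide bonds, was at 52.6 and 51.1 against 67.3 and 92.4 FPKM.

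Of 20 heat shock protein genes, 10 were without overlap higher and 2 lower (50% and 10%, against 19.1% and 22.9% of all tested genes), with a median of 0.15. Hsph1, a cytosolic co-chaperone, was at 14.5 and 12.9 against 25 and 28.9 FPKM, and Hspe1, of the mitochondrial chaperonin, at 13.1 and 13 against 17.6 and 21.7 FPKM. Cct2, of the cytosolic chaperonin, was on the other side, at 467 and 439 against 388 and 349 FPKM. Proteasome genes lay lower, with 3 of 38 without overlap higher and 19 lower (50%) and a median of -0.11, such as Psmd1 (91.4 and 96.3 against 76.0 and 71.1 FPKM) and Psmb3 (32.6 and 30.5 against 25.9 and 21.1 FPKM).

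**Figure D4:**
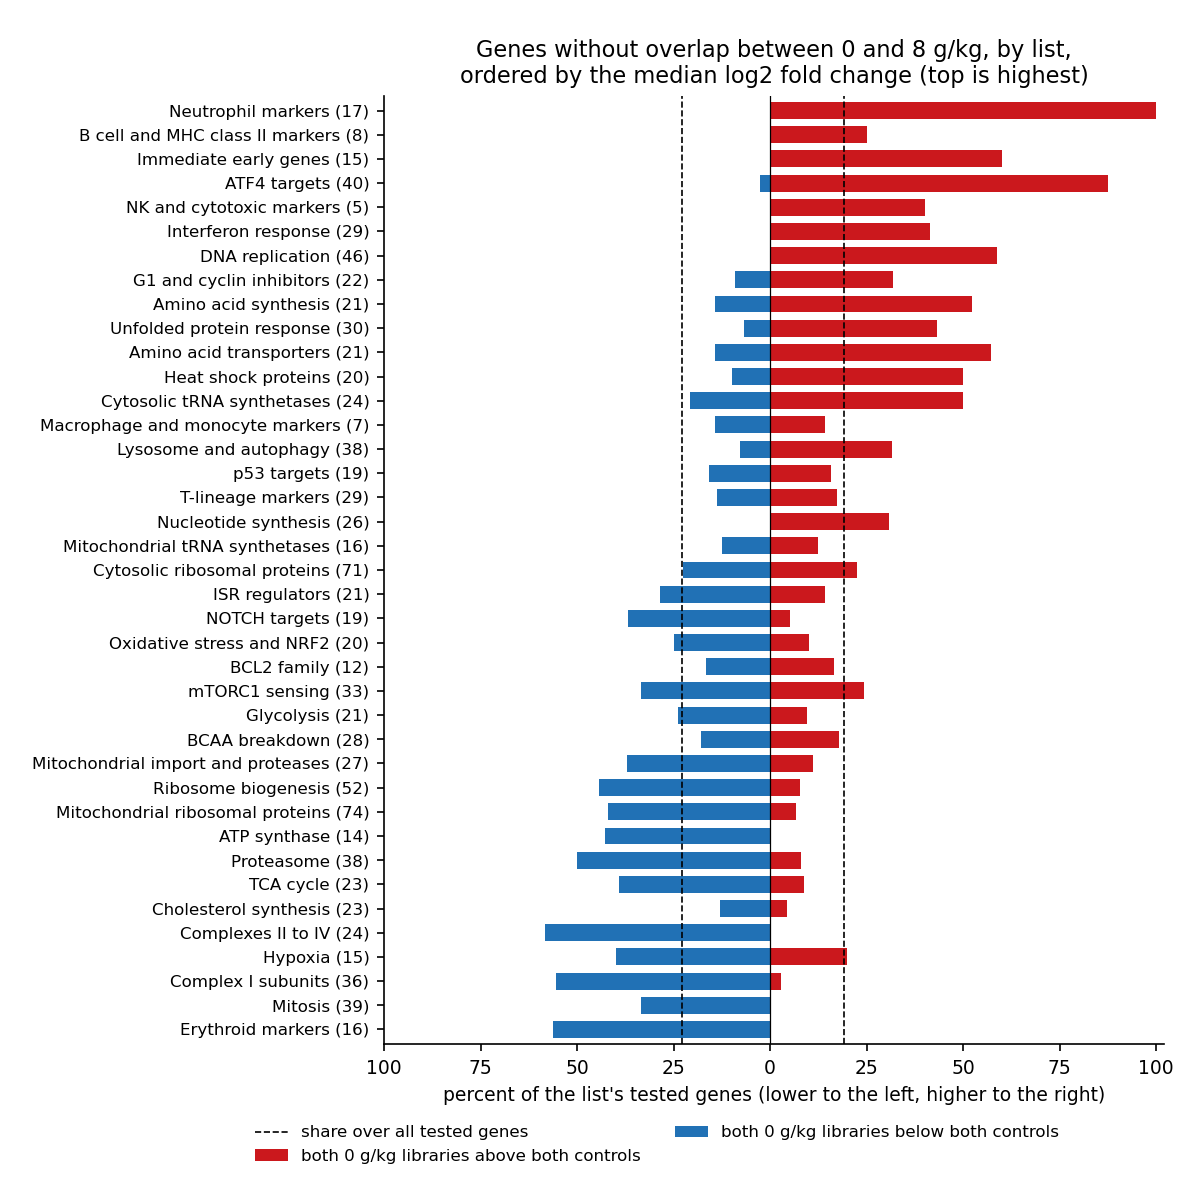
Percent of each list's tested genes (number in parentheses) whose 0 g/kg libraries both lay above (red, right) or below (blue, left) both controls, with dashed lines at the shares over all tested genes (19.1% and 22.9%) and the lists ordered by median log2 fold change. The ATF4 targets reach 87.5% on the right, with 2 of the 40 passing the filter only through the 0 g/kg libraries. The neutrophil bar (100%) is set in part by the filter, since 10 of its 17 genes passed only through the 0 g/kg libraries. Complexes II to IV (58.3% lower), erythroid markers (56.3% lower) and complex I (55.6% lower) have the longest bars to the left.

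Immediate early genes are switched on by cells within minutes of a stimulus. Of 15, 9 were without overlap higher and 0 lower (60% and 0%), with a median of 1.18. Of the 15, 1 reached the mean of 1 FPKM only through the 0 g/kg libraries, so its direction is set in part by the filter. The TALL3 pair had a median of 1.71 and the TALL2 pair 0.54, and the list's median was 0.56 if the valine-free TALL3 library was left out and 1.78 if the valine-free TALL2 library was. Fos, a subunit of AP-1, was at 17.3 and 6.61 FPKM in the controls and at 58.8 and 61.3 FPKM without valine (a log2 fold change of 2.37, SE 0.542, adjusted p = 0.358 in limma). Dusp1, which switches MAP kinases off, was at 25.2 and 9.99 against 62.3 and 65.8 FPKM, and Junb, a partner of Fos, at 160 and 65.9 against 270 and 477 FPKM. For these genes the TALL3 control was well below the TALL2 control, so the TALL3 difference was the larger. Neutrophils also express such genes, and the neutrophil marker sums of 697 and 405 FPKM belong to the same libraries; the part of these cells was not tested.

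Of 29 interferon-response genes, 12 were without overlap higher and 0 lower (41.4% and 0%, against 19.1% and 22.9% of all tested genes). The list's median was 0.58, which was 0.37 in the TALL2 pair and 0.84 in the TALL3 pair. The TALL3 library at 0 g/kg carried most of it: the median was 0.02 with that library left out and 1.42 with the valine-free TALL2 library left out. Leaving out the TALL2 control gave 0.24. Oasl2, a gene of the oligoadenylate synthetase family, was at 3.13 and 2.36 FPKM in the controls and at 7.62 and 19.4 FPKM without valine. Usp18, which removes ISG15 from proteins, was at 0.259 and 1.91 against 3.65 and 8.28 FPKM. Irf7, a regulator of the response, was at 6.20 and 5.56 FPKM in the controls and at 6.36 (TALL2) and 20.7 FPKM (TALL3) without valine, so its groups did not overlap although the TALL2 difference was small. Of 38 lysosome and autophagy genes, 12 were without overlap higher and 3 lower (31.6% and 7.89%), with a median of 0.06. Hexa, a lysosomal hexosaminidase, was at 2.16 and 2.45 against 5.83 and 8.66 FPKM.

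NOTCH target genes did not all move in 1 direction, although more were lower than higher without overlap. Of 19, 1 was without overlap higher and 7 lower (5.26% and 36.8%, against 19.1% and 22.9% of all tested genes), with a median of -0.03 and 9 above 0. The median was -0.11 in the TALL2 pair and -0.18 in the TALL3 pair. With 1 of the compared libraries left out it lay between -0.18 and -0.13. Myc, on chromosome 15 from 61985391 to 61990374, was at 267 and 222 FPKM in the controls and 161 and 112 FPKM without valine (a log2 fold change of -0.86, SE 0.192, adjusted p = 0.358 in limma), and between 156 and 202 FPKM on the partial diets. Heyl, a repressor of the HES family, was at 65.3 and 57.3 against 38.9 and 44.3 FPKM, and Il7r, the receptor for interleukin-7, at 38.2 and 17.6 against 4.42 and 15.7 FPKM. Hes1, also a direct NOTCH target, lay on the other side, with 99.8 and 76.3 FPKM in the controls, 68.2 to 92.1 FPKM on the partial diets and 161 and 122 FPKM without valine. Notch1 was at 292 and 408 against 260 and 292 FPKM, and Dtx1, a ubiquitin ligase of the pathway, overlapped (512 and 489 against 365 and 551 FPKM).

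Of the 29 T-lineage markers, 5 were without overlap higher and 4 lower (17.2% and 13.8%), with a median of 0.03. Cd3e, of the T-cell receptor complex, was at 219 and 436 FPKM in the controls and 272 and 349 FPKM without valine, so the difference between library names exceeded that between diets. Cd4 spread widely, with 4.91 and 13.5 FPKM in the controls and 2.90 (TALL2) and 87.2 FPKM (TALL3) without valine, and Cd8a was at 29.8 and 14.3 against 18.4 and 9.79 FPKM. Rag1, which cuts antigen receptor genes, was at 11.8 and 62.6 FPKM in the controls and 1.75 and 14.2 FPKM without valine. Its groups overlapped because TALL2 lay below TALL3 on both diets, although each pair was lower without valine. Cd8b1, the beta chain of CD8, was at 60.9 and 84.5 against 42.0 and 49.7 FPKM, and Tcf7, a transcription factor of early T cells, at 1172 and 1182 against 1066 and 932 FPKM.

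Genes that neutrophils and their precursors make were at higher levels in both valine-free libraries. The 17 tested of 22 listed markers had control means of 0 to 1.16 FPKM, and 10 of them reached the mean of 1 FPKM only through the 0 g/kg libraries, so these had to differ. Their count without overlap (17 of 17 higher) and their median log2 fold change (3.70) are therefore set in part by the filter and are given as a description. With no filter the median over the 22 listed markers was 3.44. S100a9, an abundant calcium-binding protein of neutrophils, was at 0.265 (TALL2) and 1.51 (TALL3) FPKM in the controls and at 194 and 107 FPKM without valine. Elane and Mpo, granule enzymes made by neutrophil precursors, were at 0 and 0.245 against 24.2 and 7.80 FPKM and at 0.0167 and 0.944 against 25.5 and 10.3 FPKM. Ltf, of the granules of later stages, was at 0.0837 and 0.198 against 15.2 and 12.6 FPKM (SE 0.437 on a log2 fold change of 3.70, adjusted p = 0.121 in limma). Mmp8 and Ltb4r1 were listed at 0 in both controls, and without valine at 3.91 and 3.39 FPKM and at 2.52 and 1.54 FPKM. By the summed level of the 22 markers, the TALL3 library at 0.4 g/kg was next after both valine-free libraries, with 91.5 FPKM. This sum does not separate early from late stages.

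Of 16 tested erythroid markers, 0 were without overlap higher and 9 lower (0% and 56.3%, against 19.1% and 22.9% of all tested genes). The list's median was -0.66, and -1.32 without the TALL2 control. The TALL2 pair had a median of -0.54, with 5 of the 16 genes higher, and the TALL3 pair -1.61, with 0 higher. Against the control mean, the list's median lay at -0.52 in the TALL2 control and at -0.53 in the valine-free TALL2 library. Of the 16 genes, 2 reached the mean of 1 FPKM only through the controls. The adult globin gene Hbb-bs was at 58.9 and 156 FPKM in the controls, listed at 0 in TALL2 and at 1.43 FPKM in TALL3 without valine, and at 13.8 to 25 FPKM on the partial diets (adjusted p = 0.121 in limma). Hba-a1 was at 11.4 and 30.1 FPKM in the controls, listed at 0 in TALL2 and at 0.692 FPKM in TALL3 without valine; the globin genes are near-identical within a cluster, so reads may be split between copies. Slc4a1, the anion exchanger of red cells, was at 3.87 and 14.1 against 0.0228 and 0.152 FPKM. Fech, the last enzyme of haem synthesis, which other cells also make, was at 31.9 and 33.7 against 21.6 and 17.3 FPKM.

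**Figure D5:**
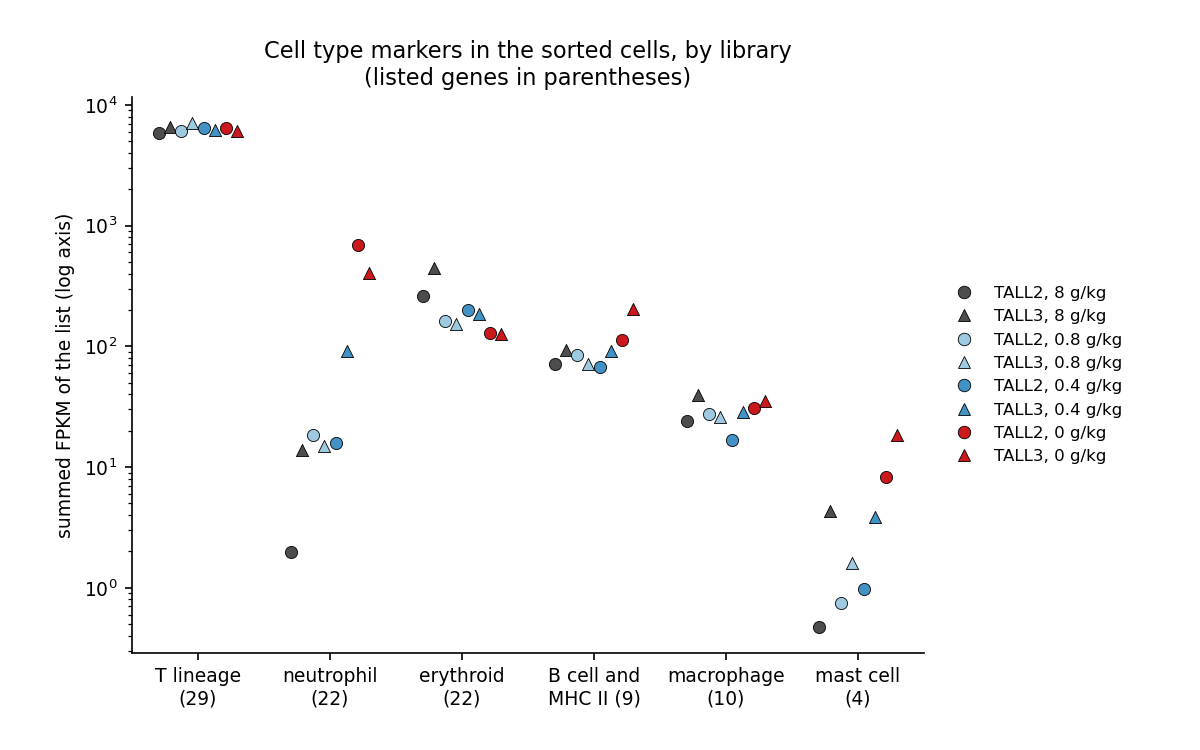
Summed FPKM (log axis) of the listed genes of 6 cell type marker lists in each of the 8 mouse libraries, with colour for the diet and shape for the library name. T-lineage sums stay between 5880 and 7124 FPKM, neutrophil sums reach 697 and 405 FPKM without valine against 1.97 and 13.9 FPKM in the controls, and erythroid sums are 130 and 126 FPKM against 261 and 445 FPKM.

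For other cell types fewer markers were listed, and the sums of some of these lists lay apart between the diets while others overlapped. The 9 listed B cell and MHC class II markers summed to 71.4 and 93.6 FPKM in the controls and to 113 and 205 FPKM without valine, with H2-Ab1, a chain of MHC class II, at 1.55 and 5.18 against 7.22 and 15.2 FPKM. Jchain, which joins secreted antibodies, was at 0.196 and 0.464 against 4.95 and 10.2 FPKM. The sums of the 4 listed plasma cell markers overlapped, at 110 and 115 against 107 and 163 FPKM. Nkg7, of cytotoxic granules, was at 2.92 and 5.41 against 12.2 and 31.9 FPKM. The sums of the 5 listed NK and cytotoxic markers overlapped, at 569 and 462 against 706 and 521 FPKM. The 10 macrophage and monocyte markers overlapped, with sums of 23.9 and 39.6 against 30.6 and 34.9 FPKM, and the 4 mast cell and basophil markers summed to 0.471 and 4.33 against 8.32 and 18.6 FPKM.

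Other lists lay near the shares over all genes or below them in both directions, and each of their medians lay on the other side of 0 in at least 1 fit with a library left out. Of 21 glycolysis genes, 2 were without overlap higher and 5 lower (median -0.07), of 23 cholesterol synthesis genes 1 and 3 (median -0.15), of 20 genes of oxidative stress 2 and 5 (median -0.04), and of 12 genes of the BCL2 family 2 and 2 (median -0.05). Within the last list Bcl2, which blocks apoptosis, was at 6.33 and 4.92 FPKM in the controls and 13.6 and 11.7 FPKM without valine, while Bcl2l11, which promotes it, was at 9.78 and 10.3 against 9.05 and 9.53 FPKM.

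In a few genes the 2 pairs of libraries went in opposite directions. A difference of at least 1 on the log2 scale in opposite directions was seen in 1 gene higher in TALL2 and lower in TALL3, and in 12 genes of the reverse order. The 1 gene was Apol11b, which went from 0.873 to 4.17 FPKM in TALL2 and from 9.64 to 2.87 FPKM in TALL3. Rab34 and Gpr83, also named by the rule, had a difference under 1 in one pair. Rab34, a small GTPase, was at 15.8 FPKM in the TALL2 control and 29.4 FPKM without valine in TALL2, and at 18.3 and 6.16 FPKM in TALL3, and Gpr83, a receptor of the brain and of some T cells, went from 2.70 to 6.73 FPKM in TALL2 and from 2.59 to 0.877 FPKM in TALL3. In the reverse order, S1pr1, the receptor that leads T cells out of lymphoid organs, went from 18.9 to 4.13 FPKM in TALL2 and from 6.60 to 20.1 FPKM in TALL3. S100a10, an annexin partner, went from 17.5 to 4.91 FPKM in TALL2 and from 15.9 to 72.3 FPKM in TALL3, and Ms4a4b, a membrane protein of T cells, from 10.6 to 2.38 FPKM and from 8.20 to 25.5 FPKM. With 1 library per name and diet these opposite differences have no replicate check.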

How the data were processed

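RNA of GFP-sorted spleen cells was purified on RNeasy columns and made into strand-specific libraries, per the labels' protocols. STAR, edgeR and the build mm10 are named in the submitters' processing notes, without versions or roles. The deposited values are FPKM per gene and library, and no source used here names the counting tool or gene model. Per-sample columns without a sample numbered 0. Symbols came from the table or, for 318 genes, from a reference list. Coordinates are from the GRCm38 annotation.

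The tested genes were fitted over 4 diets by limma 3.58.1 (R 4.3.3), using log2(FPKM + 1) and a mean-variance trend, and 0 was contrasted with 8 g/kg (two-sided, Benjamini-Hochberg, threshold 0.05). Whole reads were recovered from the steps between FPKM values: the gene length that follows was whole for 99.9% of genes, with a median of 3180 bp. Replicate libraries differed beyond counting noise on each diet (chi-square over degrees of freedom 39.6 to 96.7). Both steps were tested on simulated data.

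The comparison and the 44 gene lists were chosen with earlier results of these data known, so lists have counts and medians and no test. Lists are described by members without overlap between groups. Named genes are, outside the cell type marker lists, the 8 largest rises and falls without overlap and with a group mean of 5 FPKM or more and the 6 smallest p-values in each direction, then fixed genes of the valine, NOTCH and complex I questions, up to 4 members of each list by smallest p, members that set a sentence on a list, and genes that went in opposite directions in TALL2 and TALL3. The ATF4 list was split by role, and its further members named, after values were seen. The human table was not used here. The fit was repeated under 20 other settings, of which 1 was added after the values were seen.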

Additional observations from a re-analysis of the deposited data

How the results depend on the processing

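Limma called 0 genes in each of the 19 other settings chosen first (smallest adjusted p 0.0654 to 0.517), which were pseudocounts of 0.1 and 5, no filter or 1 at 5 FPKM, scaling by quantiles or by median of ratios, a fit without the variance trend, the library name as a block, only the diets compared, no 0.4 g/kg libraries, limma-voom on recovered reads and each library left out. The library names were not used as pairs in the main fit, since what they mark is not given and their likeness varied between diets. Deviations of same-named libraries from the diet means correlated at -0.174 to 0.743 between diets, and at 0.566 between 0 and 8 g/kg. The lowest values were those of 0.4 g/kg with 0.8 g/kg (-0.174) and with 8 g/kg (0.0588). With the replicate number as a block, the 4-diet fit called 0 genes. The block with only the 2 diets compared, added after seeing the data, called 19 genes, 14 higher and 5 lower (smallest adjusted p 0.00177). The higher ones were Asns, Pck2, Cox6a2, Slc7a3, Atf5, Fam129a, Ckb, Klk8, Cd74 of the MHC class II list and the neutrophil markers S100a9, Ltf, Retnlg, Chil3 and Camp. The lower ones were 4 globin genes and Rag1.

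Genes without overlap numbered 4180, and 4180 to 7715 without 1 library, since fewer libraries overlap less often. Quantile scaling gave 1685 higher and 2492 lower genes. The median of the ATF4 targets stayed between 0.69 and 1.06 over all settings, of complex I between -0.23 and -0.13, and of DNA replication between 0.14 and 0.30. The neutrophil median was 5.70 with a pseudocount of 0.1, 1.92 with 5, 4.99 with the filter at 5 FPKM and 6.96 in voom. The erythroid median lay between -1.32 (without the TALL2 control) and -0.53 when 1 library was left out.

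Of 39 list medians, 12 lay on the other side of 0 in at least 1 setting, in each case among others with a library left out, so no direction is read from them; their reported values lay between -0.15 and 0.09. They are those of branched-chain amino acid breakdown, the BCL2 family, cholesterol synthesis, cytosolic ribosomal proteins, glycolysis, stress response regulators (-0.058 to 0.043 with 1 library left out), macrophage markers, mitochondrial tRNA synthetases, nucleotide synthesis, oxidative stress, T-lineage markers and p53 targets. With 1 library left out, further medians moved by over 1.5 times without changing sign, such as heat shock proteins (0.05 without the TALL2 library at 0 g/kg), hypoxia (-0.09 without the TALL2 control) and mitochondrial ribosomal proteins (-0.05 without the TALL3 library at 0 g/kg). Of 190 named genes 175 kept their direction in every setting. With 1 library left out, log2 fold changes lay between -1.42 and 1.34 for Apobec2, -1.25 and 1.26 for Apol11b, -0.088 and 0.67 for Atf4, -0.50 and 0.49 for Cd3e, -1.25 and 3.25 for Cd4, -0.45 and 0.14 for Dtx1, -0.17 and 0.078 for Eif2ak4, -0.96 and 1.09 for Gpr83, -1.61 and 1.36 for Ms4a4b, -0.036 and 0.026 for Ndufs1, -1.33 and 0.75 for Rab34, -1.58 and 2.05 for S100a10, -1.26 and 0.78 for S1pr1, -2.00 and 1.23 for Scmh1, and -0.029 and 0.18 for Vars2. A pseudocount of 0.1 gave 0.10 for Apobec2 and -0.087 for Gpr83, and one of 5 gave -0.13 for Apol11b and 0.063 for Ms4a4b. Quantile scaling gave -0.13 for Apol11b and -0.015 for Gpr83, median-of-ratios scaling 0.0055 for Cd3e and 0.0044 for Ndufs1, and voom -0.094 for S100a10 and 0.36 for Scmh1. For these reversals the cause was not tested.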

Other observations

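Some marker genes below the mean of 1 FPKM were not tested, and their values followed the same order. The neutrophil receptor gene Csf3r, for the growth factor G-CSF, was at 0.05 and 0.12 FPKM in the controls and at 2.78 and 2.66 FPKM without valine, and Cxcr2, a chemokine receptor of neutrophils, at 0.02 in both controls and at 1.44 and 1.70 FPKM. Itgam, an integrin shared by myeloid cells, was at 0.40 and 0.35 FPKM in the controls and at 0.91 and 0.92 FPKM without valine. The red cell gene Rhag, of the Rh complex, was at 0.59 and 2.92 FPKM in the controls and at 0.22 and 0.21 FPKM without valine.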
